A study of Mus musculus with 4 samples.

Results

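The genes described here are 32 heat shock and immediate-early stress genes of the mouse, chosen by name and split into 2 arms, 20 immediate-early genes and 12 chaperones. They are 32 of the 31053 genes in the files, and each was found in all 4 libraries' gene tables. RNA was read in single leukocytes, which were sorted live by CD45 from mouse fibrosarcomas on day 11 after implantation. Control tumours are labelled Cas9 Control, and the other tumours are labelled Raldh1/3 DKO, a double knockout of Raldh1 and Raldh3 (genes Aldh1a1 and Aldh1a3), enzymes that make retinoic acid. There were 2 libraries per group, each from 2 pooled tumours. All tumours were untreated and were digested for 45 minutes at 37 °C with collagenase B and DNase I. The host strain and the number of knockout clones are not given in the sources used here.

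Immediate-early genes are transcribed within minutes of a stimulus from factors already present in the cell. Fos and Jun proteins join to form the transcription factor AP-1, and many other members of this class shut the response down again, as phosphatases, mRNA decay factors or inhibitors of NF-kappaB. Inducible chaperones such as Hsp70 are switched on by heat shock factor 1 when proteins unfold, while constitutive chaperones fold new proteins in every cell. Both programmes are known to be switched on in leukocytes by warm enzymatic digestion and sorting as well as in tissue. All 4 libraries had the same digestion, so transcripts made in the tumour and transcripts made afterwards cannot be told apart here.

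Depth ranged from 57458026 to 80032966 UMIs (unique molecular identifiers, 1 per captured transcript) per library, with medians of 6544 to 7581 UMIs per barcode. The targeted genes had 0 to 28 UMIs per library. Aldh1a1 had 1, 0, 0 and 1 and Aldh1a3 had 28, 9, 10 and 24 in control 1, control 2, DKO 1 and DKO 2, and as the sort removed most tumour cells these tags check the knockout little. Ptprc, the gene of CD45, was present in every library at 673 to 936 CPM (UMIs per 1000000 UMIs). Between 20 and 38 barcodes were shared by any pair of libraries. Cells were clustered without the 32 genes and without 162 further stress genes among the clustering genes, so that the members did not define the classes. The 27 clusters gave 5 classes with at least 50 cells in every library, which were monocyte/macrophage-like, T-like, NK-like, dendritic-like and neutrophil-like cells.

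The upstream sequences of the members on which the results turn are shown first, because the inducible Hsp70 pair and Rhob had among the highest changes below. They were taken from the RefSeq promoter table (GRCm38.p6), which held 27 of the 32 members. Each is written 5′ to 3′ on the gene's strand and ends just before the transcription start, apart from the shorter Hspe1 and Zfp36 stretches around their matches. The Zfp36 stretch lies inside the annotated Zfp36 gene (chr7:28376784-28380253), so it is upstream only of the start in the RefSeq promoter table. The Hspe1 stretch lies inside the annotated Hspd1 gene (chr1:55077835-55088243). Capitals mark matches to a heat shock element (GAANNTTC, TTCNNGAA or the longer element that joins them) in the Hsp70 and Hspe1 sequences, to the serum response element in Zfp36 and to the CCAAT box in Rhob, each on either strand. Hspa1a lies at chr17:34969190-34972156 and Hspa1b at chr17:34956436-34959238, both on the minus strand, and each encodes inducible Hsp70.
Hspa1a, chr17:34972157-34972306, minus strand: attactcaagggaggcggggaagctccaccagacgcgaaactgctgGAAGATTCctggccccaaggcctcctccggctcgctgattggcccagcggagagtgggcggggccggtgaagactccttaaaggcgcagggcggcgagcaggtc
Hspa1b, chr17:34959239-34959388, minus strand: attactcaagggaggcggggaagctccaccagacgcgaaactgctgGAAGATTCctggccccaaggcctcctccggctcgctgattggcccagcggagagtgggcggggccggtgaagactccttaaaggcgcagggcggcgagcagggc
Hspe1, chr1:55088053-55088082, plus strand: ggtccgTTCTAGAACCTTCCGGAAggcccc
Zfp36, chr7:28379267-28379296, minus strand: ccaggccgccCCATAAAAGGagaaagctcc
Rhob, chr12:8500010-8500159, minus strand: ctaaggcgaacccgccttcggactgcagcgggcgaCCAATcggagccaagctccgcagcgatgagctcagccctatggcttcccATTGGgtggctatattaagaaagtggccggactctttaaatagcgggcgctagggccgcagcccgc

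The Hspa1a and Hspa1b sequences were identical at 149 of the 150 bases shown and at 247 of 250 bases searched. Within the 250 bases upstream of the start, GAANNTTC occurred in 6 of 9 chaperone members in the table (Hspa1a, Hspa1b, Hspb1, Dnaja1, Hspe1 and Hspd1) and in 1 of 18 immediate-early members (Jun), against 6.69% of 32851 windows of the same length. The longer element, GAANNTTC followed by a further GAA unit at the same spacing, occurred in Hspe1 and Hspd1 and in 0.466% of windows. TTCNNGAA, which overlaps both, occurred in Hsph1, Hspe1 and Hspd1 and in 7.17% of windows. Hspe1 (plus strand, from chr1:55088132) and Hspd1 (minus strand, to chr1:55088243) lie head to head, and the Hspa1a and Hspa1b windows are nearly identical. Matches in both genes of either pair may therefore not be separate. The cAMP response element TGACGTCA occurred in Dusp1, Btg2 and Ppp1r15a (1.55% of windows), and the AP-1 site TGACTCA in Bag3 (4.46%). The serum response element occurred in Zfp36 (1.47%), and the NF-kappaB decamer in Fos, Fosb, Ier3, Nfkbia, Hspa1a, Hspa1b, Hspe1 and Hspd1 (7.25%). The CCAAT box occurred in 9 immediate-early and 5 chaperone members and in 33.9% of windows. These matches describe letters in a window and show no binding.

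Reads of some chaperones could be shared between genes. Hspa1a and Hspa1b shared 58.8% of the 50-base words of the Hspa1a transcript but 0% within the last 500 bases, where 3′ tags fall. For Hspa8 and Hspe1, 81.8% and 53.2% of the words in the last 500 bases occurred in other annotated genes, most of them pseudogenes, so their levels are uncertain. The antisense gene Gm20481 overlaps Hspa1a, and whether counting used the strand is not given in the sources used here.

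Between the myeloid and T-like classes 26 of 32 members differed in level, a share near that of all genes (79%). Levels of single genes are CPM after scaling by edgeR's TMM factors, and sums are plain CPM. When the monocyte/macrophage-like and T-like classes of the same libraries were compared, 10 of 20 immediate-early members were higher and 9 were lower in the myeloid class (edgeR, adjusted p under 0.05), as were 4 and 3 of 12 chaperones. Over all 13289 genes tested, 40.1% were higher and 38.9% lower. Ier5, Hspa1b, Hsp90aa1, Hsp90ab1, Hspe1 and Hspd1 did not pass.

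Ier3, an early response gene tied to cell survival, was at 852 to 1153 CPM in the monocyte/macrophage-like cells of the 4 libraries and at 31.1 to 53.8 in their T-like cells (log2 4.58 ± 0.08, SE). Atf3, an AP-1 partner, was at 247 to 269 against 26.6 to 38.2 CPM (log2 3.08 ± 0.09). Rhob, a small GTPase that acts on endosomes and the cytoskeleton, was at 129 to 242 against 24.5 to 47.3 CPM (log2 2.30 ± 0.07). With doublets kept these log2 differences were 2.73 for Ier3 and 2.26 for Atf3, and both were still called. In each of the 3 genes the lowest myeloid library lay above the highest T-like one.

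The 3 immediate-early members with the lowest log2 difference were Nfkbiz, Gadd45b and Nfkbia. Nfkbiz, which encodes the nuclear protein IkappaB-zeta, was at 76.8 to 113 CPM in monocyte/macrophage-like cells and 262 to 311 in T-like cells (log2 -1.65 ± 0.07). Gadd45b, a stress sensor of the MAP kinase pathway, was at 109.7 to 121 against 267 to 319 CPM (log2 -1.32 ± 0.07, and -0.80 with the members among the clustering genes). Nfkbia, which encodes IkappaB-alpha, was at 248 to 352 against 585 to 692 CPM (log2 -1.18 ± 0.07). The classes did not overlap in any of the 3.

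Among the chaperones, Hspa1a was higher in the myeloid class, at 57.6 to 116 CPM against 15.6 to 50.9 (log2 1.43 ± 0.20). Bag3, which couples Hsp70 to protein clearance, was at 26.3 to 28.2 against 10.3 to 12.8 CPM (log2 1.26 ± 0.09). Hspb1, a small heat shock protein, was close to 0 in both classes, at 0.724 to 2.48 and 0.118 to 1.26 CPM (log2 1.81 ± 0.39), and this difference was at log2 -1.06 without doublet removal, where it was not called (adjusted p = 0.412). The Hsp40 proteins that feed Hsp70 were lower, Dnajb1 at 38.3 to 46.1 against 75.1 to 84.7 CPM (log2 -0.88 ± 0.08) and Dnaja1 at 188 to 238 against 329.8 to 357 CPM (log2 -0.74 ± 0.07). Hsph1, which recharges Hsp70, was at 39.8 to 64.9 against 70.2 to 87.7 CPM (log2 -0.75 ± 0.10).

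**Figure D1:**
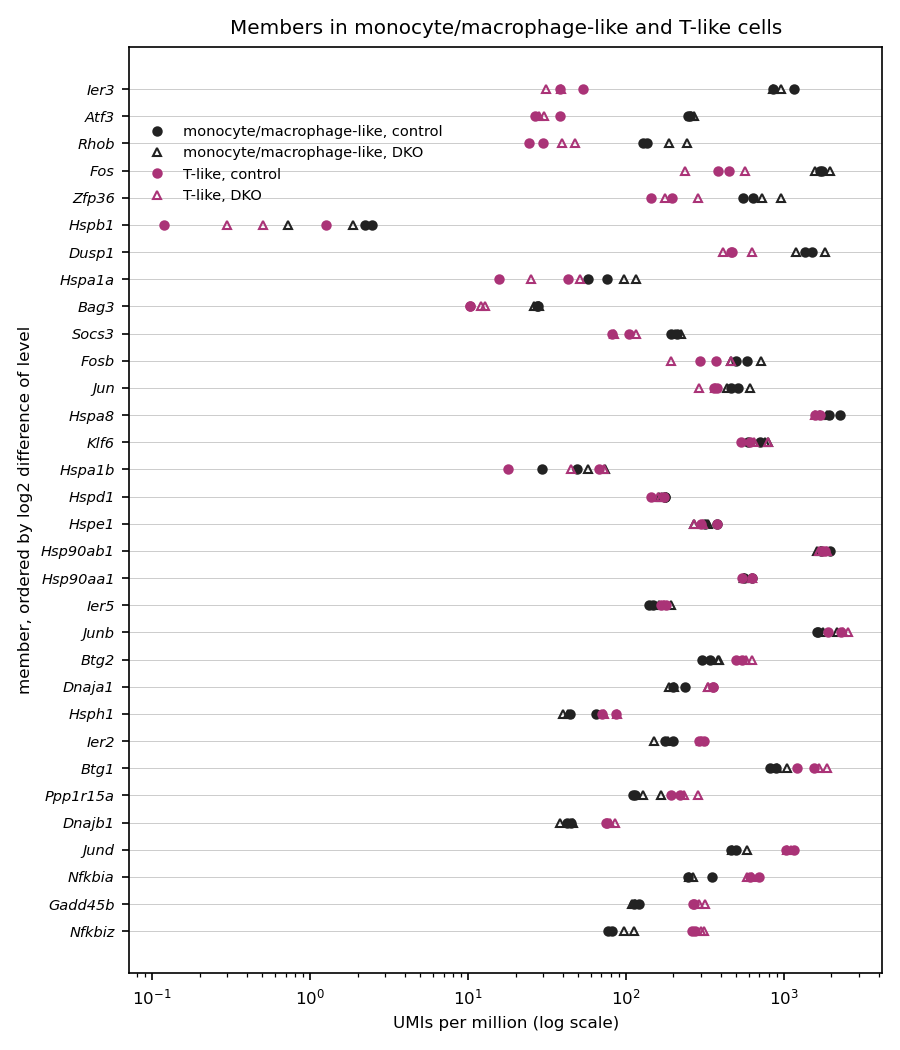
Level of each of the 32 members in CPM (log axis) in monocyte/macrophage-like (black) and T-like (purple) cells, with 1 point per library (filled circles control, open triangles DKO), ordered by the log2 difference of level. Ier3, Atf3 and Rhob at the top and Nfkbia, Gadd45b and Nfkbiz at the bottom show no overlap between the classes.

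The immediate-early level was highest in neutrophil-like cells. The 20 genes summed to 41638, 35191, 45864 and 43249 CPM there (control 1, control 2, DKO 1 and DKO 2), against 8573 to 13396 in the other 4 tested classes. The 12 chaperones were at their lowest in the same cells, at 1997, 2522, 1398 and 1324, against 4660.4 to 6192 in the other 4. Neutrophil-like cells were shallow, with medians of 1609 to 2093 UMIs per cell against 4142 to 12958 in the other classes.

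**Figure D2:**
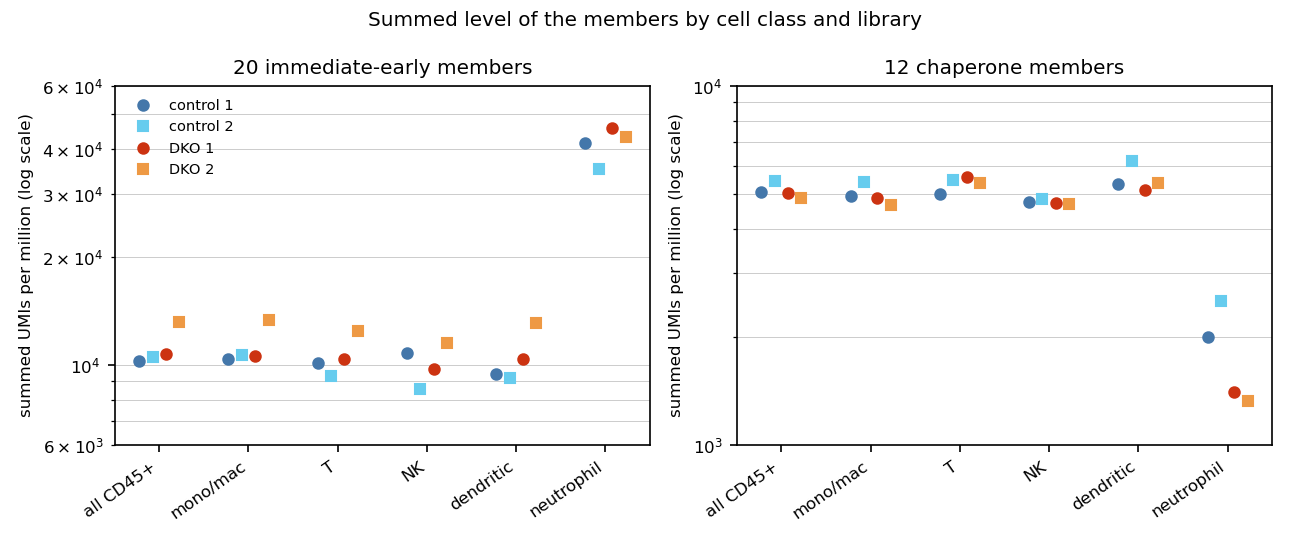
Summed level of the 20 immediate-early members (left) and the 12 chaperone members (right) in CPM (log axes) by cell class, with 1 point per library. Neutrophil-like cells stand above the other classes on the left and below them on the right, and DKO 2 is the highest library on the left in every class drawn apart from neutrophil-like cells.

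Over all CD45+ cells, none of the 32 members differed between DKO and control at an adjusted p under 0.05 in edgeR, as was the case for all 14412 genes tested (0%). At an unadjusted p under 0.05 there were 4 members of 32 and 1855 genes (12.9%). Both DKO libraries lay above both controls in 14 members (background 24.8% of genes) and below them in 5 (background 22.6%). The 11 immediate-early members on the high side included Junb, Jund and Zfp36, and the 4 chaperones on the low side were Hsp90ab1, Hspa8, Hspb1 and Hspd1. The median log2 change was 0.20 for the immediate-early arm and -0.12 for the chaperones, beside 0.01 for all genes. Sums over all sorted cells move with the mix of cell types, so fewer cells of a type and less RNA per cell cannot be told apart in them.

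The 5 immediate-early members with the most UMIs over all CD45+ cells were Junb, Btg1, Fos, Dusp1 and Ier3, and both DKO libraries lay above both controls in the first pair. Junb, an AP-1 subunit, was at 1649 and 1652 CPM in the controls and 1881 and 2192 in the DKO libraries (log2 0.30 ± 0.15). Btg1, which recruits the mRNA deadenylase complex, was at 911 and 938 against 1095 and 1235 CPM (log2 0.33 ± 0.14). The libraries of the next 3 overlapped. Fos was at 1364 and 1473 CPM in the controls and 1175 and 1468 in the DKO libraries, and Dusp1, a phosphatase of MAP kinases, at 1116 and 1318 against 957 and 1379. Ier3 was at 654 and 970.3 against 684 and 565 CPM (log2 -0.38 ± 0.22).

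Of the 5 chaperones with the most UMIs, both DKO libraries lay below both controls in Hspa8 and Hsp90ab1, and the other 3 overlapped. Hspa8, the constitutive Hsp70, was at 1830.2 and 2143 CPM in the controls and 1755 and 1580.2 in the DKO libraries (log2 -0.25 ± 0.16). Hsp90ab1, the constitutive cytosolic Hsp90, was at 1727 and 1930.5 against 1723 and 1593 CPM (log2 -0.14 ± 0.15), and its stress-inducible partner Hsp90aa1 at 552 and 634 against 559 and 565. Hspe1, the mitochondrial Hsp10, was at 317 and 378 against 322 and 265 CPM. Dnaja1 was at 223 and 256 against 229 and 217 CPM. In this arm control 2 was the highest library for 9 of 12 genes.

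In monocyte/macrophage-like cells 0 of the 32 members passed the test, where 1 of 13002 genes did (0.00769%), and 6 members and 1116 genes (8.58%) had an unadjusted p under 0.05. Both DKO libraries lay above both controls in 10 immediate-early members and in Hspa1a and Hspa1b (background 20.7%). They lay below in 4 chaperones and in no immediate-early member (background 20.3%). DKO 2 was the highest library for 15 of the 20 immediate-early members. Without control 1 the test called Hsph1 with 472 genes in all, and without control 2 it called Hspa1b with 27. DESeq2 called Rhob (adjusted p = 0.0139), where 140 of 18921 genes were called (0.74%).

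Rhob had the highest log2 change of the immediate-early arm, at 123 and 129.6 CPM in the controls and 177 and 230.0 in the DKO libraries (log2 0.69 ± 0.16, adjusted p = 0.364). Zfp36, which encodes tristetraprolin, a protein that speeds the decay of cytokine mRNAs, was at 602 and 523 against 689 and 909 CPM (log2 0.51 ± 0.18, adjusted p = 0.515). Nfkbiz was at 73.0 and 77.0 against 91.8 and 107 CPM (log2 0.41 ± 0.12). Ppp1r15a, the phosphatase subunit that restarts translation after stress, was at 105 and 109 against 122 and 159 CPM. In all 4 genes DKO 2 was the highest library and DKO 1 the second.

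The same order held with smaller gaps for the transcription and growth regulators. Junb was at 1537 and 1552 CPM in the controls and 1683 and 2072 in the DKO libraries, and Btg1 at 781 and 849 against 861 and 995. Btg2, a relative of Btg1, was at 287 and 323 against 363 and 367 CPM. Klf6, a zinc finger transcription factor, was at 565 and 670.2 against 726 and 756 CPM. The lowest changes in this arm were of Nfkbia, at 236 and 334 against 254 and 239 CPM (log2 -0.21 ± 0.19), and of Ier2, at 168 and 187 against 144 and 176. Both overlapped between groups.

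The inducible Hsp70 pair stood apart from the other chaperones in these cells. Hspa1a was at 54.7 and 72.2 CPM in the controls and 110.1 and 92.4 in the DKO libraries (log2 0.67 ± 0.17, adjusted p = 0.376). Hspa1b was at 28.1 and 46.6 against 69.7 and 55.0 CPM (log2 0.74 ± 0.26, adjusted p = 0.524). For this pair DKO 1 was the highest library, whereas DKO 2 was the highest for Rhob, Zfp36, Nfkbiz and Ppp1r15a. Among chaperones at 20 CPM or more, Hsph1 had the lowest change, at 41.8 and 61.6 against 37.9 and 40.6 CPM (log2 -0.40 ± 0.19). Next was Hspa8, at 1839.6 and 2144 against 1782 and 1603 CPM. Hspb1, below that level, had a lower change than both. Dnaja1 overlapped, at 189 and 226 against 192 and 178 CPM. The 10 chaperones other than the Hsp70 pair had changes below 0.

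Summed over the immediate-early arm, the monocyte/macrophage-like level was 10427 and 10635 CPM in the controls and 10574 and 13396 in the DKO libraries, so DKO 1 lay between the controls. The chaperones summed to 4935 and 5382 in control and 4865 and 4660.4 in DKO. The largest cluster of this class was not the same in every library. Clusters led by Cdh1 and by Pf4 were the largest in control 1 and control 2 (17.96% and 27.9% of the class), and the cluster led by Apol7c and Dnase1l3 in both DKO libraries (17.99% and 25.2%). With every cluster at the same weight in each library, the immediate-early sums were 11281 and 10615 in control and 11875 and 15530 in DKO, which no longer overlapped. At that weighting the Hspa1a change was log2 0.96 and that of Hspa1b 1.00.

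**Figure D3:**
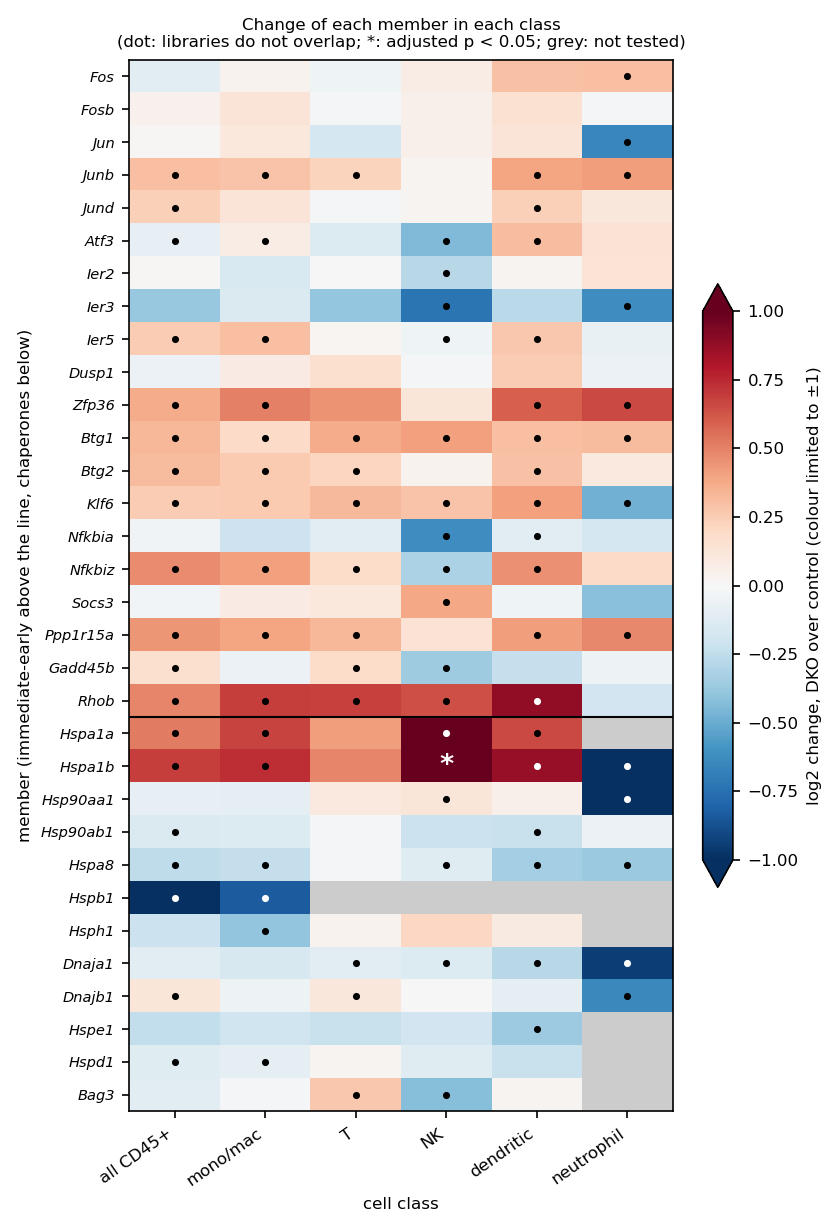
Log2 change of each member (rows) between DKO and control in all CD45+ cells and in 5 classes (columns), with red for higher in DKO and blue for lower. Dots mark members whose DKO libraries do not overlap the controls, the star marks Hspa1b in NK-like cells (adjusted p = 0.000641), and grey cells were not tested.

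In T-like cells 31 members were tested, since Hspb1 was filtered out as too low, and 0 passed (background 0.00895%). The unadjusted p was under 0.05 for 4 members and for 1603 genes (14.3%), a similar share. Both DKO libraries were above both controls in 8 immediate-early members, Dnajb1 and Bag3 (background 24.3%), and below in Dnaja1 alone (background 22.6%). Without DKO 1 the test called 6 members (Zfp36, Ppp1r15a, Btg1, Klf6, Rhob and Ier3) and 649 genes. Without DKO 2 it called 3 (Fosb, Rhob and Fos), with 291 genes. The cluster led by Klra7 and Klra1 was the largest of the class in both controls, that led by Cd8a in DKO 1 and that led by Cd4 in DKO 2.

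Rhob again had the highest change of its arm, at 25.6 and 31.6 CPM in the controls and 41.5 and 49.9 in the DKO libraries (log2 0.68 ± 0.15, adjusted p = 0.188). Zfp36 was at 205 and 152 against 187 and 301 CPM and overlapped. Btg1 was at 1614 and 1281 against 1748 and 1988 CPM (log2 0.37 ± 0.15), and Klf6 at 564 and 644 against 679 and 836. These DKO libraries lay above both controls, as did those of Junb (2392 and 2017 against 2476 and 2677 CPM) and Btg2 (564 and 531 against 665 and 603). Nfkbiz (274 and 291 against 327 and 315 CPM) and Ppp1r15a (229 and 204 against 244 and 302) did so too.

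The lowest immediate-early changes in T-like cells were of Ier3, at 40.02 and 57.03 against 40.7 and 32.8 CPM (log2 -0.39 ± 0.18), and of Jun, at 375 and 399 against 303 and 385. Fos and Fosb showed how far the DKO libraries stood from each other. Fos was at 469 and 405 CPM in control, 248 in DKO 1 and 600.5 in DKO 2, and Fosb at 392 and 312, then 203 and 491.

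In the chaperones of T-like cells the libraries of a group stood apart from each other for the Hsp70 pair. Hspa1a was at 16.4 and 45.3 CPM in the controls and 53.4 and 26.5 in the DKO libraries, and Hspa1b at 18.7 and 71.9 against 76.1 and 47.5. Control 1 was the lowest library for both, and without it the log2 changes were -0.17 and -0.21 in place of 0.42 and 0.48. Hspe1 was at 313 and 399 against 324 and 286 CPM, and Dnaja1 at 369.9 and 378 against 348 and 348. Hspa8 was at 1648 and 1788 against 1758 and 1658 CPM.

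NK-like cells held the 1 member that passed the test. Hspa1b rose from 14.96 and 9.61 CPM in control to 47.8 and 48.6 in DKO (12.3 ± 3.78 against 48.2 ± 0.578, SD, n = 2; log2 1.99 ± 0.24, edgeR adjusted p = 0.000641), where 6 of 9202 genes were called (0.0652%). It passed under each of 12 alternative settings, including without each library in turn, with log2 changes of 1.69 to 2.32. These levels rest on few transcripts, 27 and 20 UMIs in the controls and 109 and 123 in the DKO libraries. The UMIs came from 12 of 355 and 16 of 374 control cells and from 32 of 389 and 29 of 352 DKO cells. In DKO 2 a single cell held 63 UMIs. Outside the 5 cells with the most UMIs in each library, 8 and 11 UMIs remained in control and 46 and 33 in DKO. Whether the change differs from that in other classes was not tested.

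Its twin Hspa1a was at 4.43 and 6.24 CPM in the controls and 36.4 and 13.05 in the DKO libraries (log2 2.17 ± 0.61, adjusted p = 0.395), from 8, 13, 83 and 33 UMIs. It passed without control 1, without control 2 and without DKO 2, with the replicate block and without the low-count filter, and did not without DKO 1. NK-like markers summed to 15424 and 17434 CPM in the controls and 19802 and 20540 in the DKO libraries, and monocyte/macrophage-like markers to 2026, 2288, 2002 and 1654, so the latter were lower in DKO. Of the 12 NK markers, 5 were above and 2 below both controls in both DKO libraries. Their part in the Hspa1b value was not tested.

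**Figure D4:**
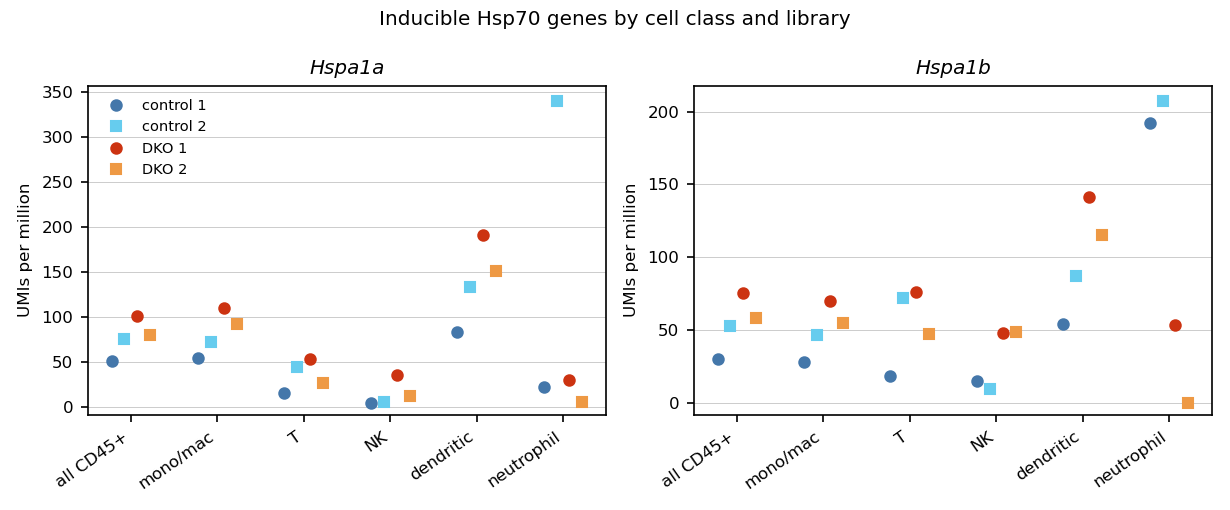
Level of Hspa1a (left) and Hspa1b (right) in CPM by cell class, with 1 point per library. In NK-like cells both DKO points of Hspa1b sit at 47.8 and 48.6 above controls at 14.96 and 9.61, and in neutrophil-like cells both sit below the controls.

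Of the 31 members tested in NK-like cells, both DKO libraries were above the controls in 7 (background 20.8%) and below in 10 (background 20.1%), and 6 had an unadjusted p under 0.05, as did 879 genes (9.55%). The low side held 7 immediate-early members, among them Nfkbia and Nfkbiz. Nfkbia was at 561 and 563 CPM in the controls and 410.2 and 320.3 in the DKO libraries (log2 -0.62 ± 0.16, adjusted p = 0.222). Ier3 was at 48.2 and 58.6 against 37.7 and 27.3 CPM (log2 -0.73 ± 0.19, adjusted p = 0.224), and Nfkbiz at 291 and 266 against 261 and 186. Nfkbia and Ier3 passed without control 1 and without DKO 1, when 5 members each were called, with 350 and 122 genes in all.

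On the high side, Rhob was at 58.2 and 62.4 CPM in the controls and 83.8 and 105 in the DKO libraries (log2 0.64 ± 0.17, adjusted p = 0.222). Btg1 was at 1683 and 1169 against 1805 and 1987 CPM, and Klf6 at 460.4 and 454 against 523 and 592. Junb (2808 and 2064 against 2337 and 2615 CPM) and Zfp36 (214 and 180.1 against 201 and 229) overlapped. So did Btg2 (803 and 731 against 806 and 769 CPM) and Ppp1r15a (243 and 185 against 222 and 249). Hspa8 was at 1593 and 1634 against 1520.1 and 1442 CPM, and Dnaja1 at 322 and 333 against 322 and 273. The mix of NK-like clusters differed, with 16 and 59 control cells and 31 and 14 DKO cells in the cluster led by Gzmg and Gzmf. With each cluster at the same weight in every library, the summed immediate-early change was log2 0.020 in place of 0.14, and the groups overlapped. At that weighting Junb was at log2 -0.026, Btg1 at 0.39 and Hspa1b at 1.95.

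In dendritic-like cells 31 members were tested and 0 passed, as for all 9854 genes (0%), with 8 members and 724 genes (7.35%) at an unadjusted p under 0.05 and 0 members called by DESeq2. The DKO libraries lay above both controls in 13 members (background 20.5%), namely 11 immediate-early genes and the Hsp70 pair. They lay below in 5 (background 19.6%), namely Nfkbia and 4 chaperones. Without DKO 1 the test called 13 of 31 members and 852 of 10468 genes, and without DKO 2 it called Hspa1b, Hspa1a and Ier3 with 185 genes. With 1 library in an arm that library is taken to vary like the other group.

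Rhob was at 19.2 and 24.8 CPM in the controls and 31.7 and 47.6 in the DKO libraries (log2 0.89 ± 0.24, adjusted p = 0.627). Hspa1b was at 54.1 and 86.9 against 141 and 116 CPM (log2 0.87 ± 0.22), and Hspa1a at 84.2 and 134 against 191 and 151. Zfp36 was at 622 and 436 against 691 and 911 CPM (log2 0.60 ± 0.22). As in the macrophage class, DKO 1 was higher for the Hsp70 pair and DKO 2 for Rhob and Zfp36.

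Other members of dendritic-like cells had smaller changes. Junb was at 1419 and 1349 CPM in the controls and 1764 and 1876 in the DKO libraries, and Klf6 at 686 and 709.7 against 885 and 967. Btg1 was at 947 and 929 against 1218 and 1093 CPM, and Btg2 at 465 and 425 against 616 and 474. Ppp1r15a was at 172 and 183 against 231 and 243 CPM, and Nfkbiz at 88.5 and 98.0 against 104 and 149. All 6 lay above both controls. Both DKO libraries lay below both controls in Hsp90ab1 and in 3 further chaperones, with Hspe1 at 297 and 396 against 293 and 246 CPM, Hspa8 at 2309.8 and 2618 against 2062 and 1831, and Dnaja1 at 225 and 260.0 against 195 and 205.

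In neutrophil-like cells 26 members passed the filter on low counts, and 6 chaperones (Hspa1a, Hspb1, Hsph1, Hspe1, Hspd1 and Bag3) did not. None of the 26 passed the test in edgeR or DESeq2, where edgeR called 4 of 3503 genes (0.114%), and 6 members and 328 genes (9.36%) had an unadjusted p under 0.05. Both DKO libraries were above both controls in 5 members (background 20.5%) and below in 8 (background 19.6%). This class held 157 and 347 cells in control and 197 and 83 in DKO. Neutrophil-like markers summed to between 51027 and 107940 CPM and overlapped, while T-like markers were at 41.7 and 35.7 in control and 76.5 and 119 in DKO. Their part in these values was not tested.

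Zfp36 was at 2639 and 2186 CPM in the controls and 4039 and 3579.9 in the DKO libraries (log2 0.66 ± 0.23, adjusted p = 0.358). Ppp1r15a was at 1632 and 1213 against 1970.5 and 1986 CPM, Junb at 5798 and 5125 against 7435 and 7126, and Btg1 at 3423 and 3375 against 4964 and 3485. Klf6 lay on the other side, at 1967 and 1786 against 1508 and 1175 CPM. Rhob overlapped here, at 252 and 199.7 against 173 and 224 CPM (log2 -0.19 ± 0.28), as did Btg2 (1912 and 1304 against 1952 and 1477) and Nfkbiz (1084 and 1456 against 1561 and 1342).

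The 6 chaperones that passed the filter in neutrophil-like cells had changes below 0. Hsp90aa1 was at 572 and 1127 CPM in the controls and 425 and 319 in the DKO libraries (log2 -1.19 ± 0.31, adjusted p = 0.189), and Dnaja1 at 419.9 and 359.9 against 198 and 207 (log2 -0.94 ± 0.26, adjusted p = 0.232). Hspa8 was at 519.9 and 533 against 346 and 475 CPM. Hspa1b was at 192 and 207 CPM in control, 53.5 in DKO 1 and 0 in DKO 2 (adjusted p = 0.178, not called), and 0 UMIs allow up to 17.0 CPM there. Its 48 and 110 control UMIs came from 7 and 15 cells, and 32 of the 48 in control 1 from a single cell. In control 2 a single cell held 93 of 219 Hspa1a UMIs. The test called Hspa1b without control 1, without control 2 and without DKO 1 (76, 7 and 27 genes in all) but not without DKO 2.

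Counts across classes were set beside those of the 3229 genes tested in all 5. Btg1 lay above both controls in both DKO libraries in 5 of 5 classes, and Junb, Klf6, Ppp1r15a and Rhob in 4. Zfp36, Btg2, Nfkbiz and Hspa1b did so in 3, and Hspa1a in 3 of the 4 in which it was tested. Hspa8 and Dnaja1 lay below both controls in 4 of 5 classes. Of the 26 members tested in every class, 1 lay above in 5 classes (1.61% of genes), 5 in 4 or more (7.09%) and 9 in 3 or more (18.9%), and 2 lay below in 4 or more (5.2%). The classes come from the same 4 libraries, so these counts are not independent of each other. Fosb and Dusp1 overlapped between groups in every class.

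The change of the members was compared directly between the monocyte/macrophage-like and the T-like class. For 0 of 32 members did the class-by-group term pass in edgeR, where 51 of 13289 genes did (0.384%). An unadjusted p under 0.05 was found for 2 of the 32 members and for 1140 of the 13289 genes. The smallest adjusted p was 0.418, for Hsph1 (log2 -0.41 ± 0.15, lower in DKO in the myeloid class relative to T-like cells). In the immediate-early arm it was 0.495, for Jun (log2 0.27 ± 0.11). With the mitochondrial limit at 5% the term passed for Jun, when 92 of 12676 genes were called in all.

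DKO 2 had the highest immediate-early sum in 24 of the 27 clusters, across myeloid cells, T-like cells, NK-like cells and the 3 unnamed clusters. The exceptions were the neutrophil-like, B-like and tumour or fibroblast-like clusters. Both DKO libraries lay above both controls in 19 clusters and below them in 0. In the monocyte/macrophage-like cluster led by Hp and Ifitm6, the sums were 15235 and 12591 CPM in the controls and 17640 and 21550 in the DKO libraries. In the NK-like cluster led by Gzmg and Gzmf, where they were lowest, they were 3296 and 3393 against 3834 and 5367. Chaperone sums lay above the controls in 6 clusters and below them in 10. The clusters share 4 libraries, so a level common to a whole library counts in each of them. DKO 2 also had the fewest cells kept (4647) and the highest median mitochondrial share (4.12%, against 3.42% to 3.98%), and their part in its immediate-early level was not tested.

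**Figure D5:**
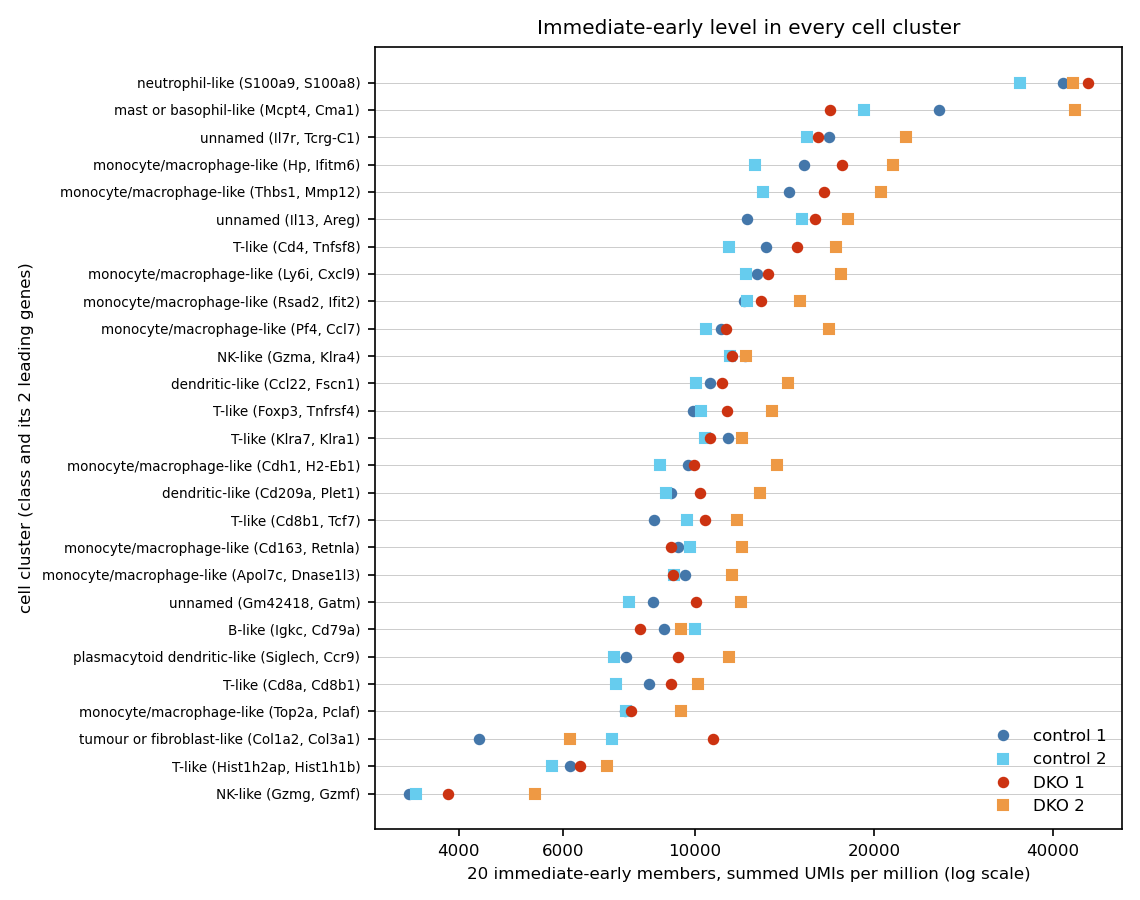
Summed level of the 20 immediate-early members in CPM (log axis) in each of 27 cell clusters, ordered by mean, with 1 point per library. DKO 2 (orange squares) is the rightmost point in 24 clusters, and the neutrophil-like cluster has the highest mean.

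Classes too small to test gave sums only. Mast or basophil-like cells (13, 7, 13 and 57) had immediate-early sums of 25725 and 19269 CPM in the controls and 16897 and 43629 in the DKO libraries. Plasmacytoid dendritic-like cells (34, 15, 15 and 28) were at 7639 and 7311 against 9346 and 11414, and B-like cells (24, 17, 22 and 23) at 8859 and 9998 against 8083 and 9450. The tumour or fibroblast-like class (64, 63, 33 and 28 cells) had the highest chaperone sums of the classes, at 8900.7 and 10459 in control and 8087 and 6529.6 in DKO.

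Within a class, single cells spread widely in the immediate-early share of their UMIs. In monocyte/macrophage-like cells the 10th, 50th and 90th percentiles were 0.449%, 1.12% and 1.96% in control 1 and 0.604%, 1.49% and 2.91% in DKO 2. Control 2 had 0.544%, 1.13% and 1.97%, and DKO 1 had 0.576%, 1.14% and 2.28%. The medians of control 1, control 2 and DKO 1 were thus close, while the 90th percentile was higher in both DKO libraries. In T-like cells the medians were 1.02% and 0.982% in control and 1.10% and 1.34% in DKO. Chaperone medians in monocyte/macrophage-like cells were 0.457%, 0.492%, 0.451% and 0.434%.

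Across single monocyte/macrophage-like cells of a library the immediate-early and chaperone shares were nearly unrelated, with Pearson's r of -0.07 to -0.03 over 2132 to 4918 cells. Over the 20 pairs of class and library r lay between -0.23 and 0.10. The immediate-early share was lower in deeper cells of this class (r of -0.55 to -0.40 with log2 UMIs), which share depth as a denominator, and DKO 2 had the deepest cells of the class (median 12958 UMIs against 8900.5 to 11342).

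The wider pathways were followed in 10 lists of 162 further genes. None of them passed the edgeR test in any class, where 12.7% to 27.7% of those tested had an unadjusted p under 0.05, against 7.35% to 14.3% of all genes. DESeq2 called 14 over all CD45+ cells (431 of 20748 genes, 2.08%), 4 in monocyte/macrophage-like cells (Csrnp1, Egr2, Sgk1 and Tnfaip3) and 4 in T-like cells (Csrnp1, Nr4a1, Nr4a3 and Ubb, where 0.182% of genes were called). It called 0 in the other classes. Of 39 other AP-1 and immediate-early genes, both DKO libraries were above both controls in 20 and below in 5 in monocyte/macrophage-like cells (backgrounds 20.7% and 20.3%), with a median log2 change of 0.22 beside 0.01 for all genes. In T-like cells these counts were 19 and 0 of 37 tested (24.3% and 22.6%). Within this list Csrnp1, a nuclear factor, had the highest change in the myeloid class (log2 0.63, edgeR adjusted p = 0.376) and Phlda1 the lowest (log2 -0.38). Csrnp1 was also the highest of the list in T-like cells (log2 0.63, edgeR adjusted p = 0.144). The list of Egr and Nr4a genes also held Nab1 and Nab2. All 8 genes of that list lay above both controls in T-like cells, with a median log2 change of 0.47. In monocyte/macrophage-like cells 1 of them did, and there Egr2 had the highest change (log2 0.74) and Nab1 the lowest (log2 -0.17).

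The background in monocyte/macrophage-like cells was 20.7% of genes above both controls and 20.3% below, for each list that follows. Of 17 NF-kappaB feedback genes, 8 lay above and 3 below the controls in these cells, from Tnfaip3, which encodes the ubiquitin editor A20 (log2 0.56), to Nfkb2 (log2 -0.35). MAP kinase phosphatases and their partners had 3 above and 1 below of 11, from Dusp6 (log2 0.36) to Dusp16 (log2 -0.18). Among chaperones outside the members, 5 of 33 other cytosolic ones lay above and 11 below, from Hspa14 (log2 0.14) to Ahsa1, a stimulator of Hsp90 (log2 -0.56). The subunits of the TRiC chaperonin had 1 above and 4 below of 7 (Cct7 at log2 0.04 and Cct2 at -0.17).

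The mitochondrial chaperones had 2 above and 2 below of 7 in the same cells (Hscb at log2 0.24 and Grpel1 at -0.55). Backgrounds for this and the next 3 lists were again 20.7% above and 20.3% below. Genes of the endoplasmic reticulum and its unfolded protein response had 6 above and 0 below of 19 (Herpud1 at log2 0.60 and Sdf2l1 at -0.29). Heat shock factors and their partners had 1 above and 0 below of 7, with Sqstm1, an autophagy receptor, at log2 0.33 and the ubiquitin gene Ubb at -0.59. Oxidative and metal stress genes had 0 above and 3 below of 9 (Mt2 at log2 0.28 and Gpx1 at -0.53).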

How the data were processed

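The deposited files were counts of UMIs per barcode and gene from 4 libraries (10x Single Cell v3, per the labels), made by the authors with Cell Ranger, Seurat 3.1.0 and R 3.6.0 per the submitters' processing notes, which name the builds GRCh38 and mm10. Matrix software was version 3.1.0 per the file headers. Cells needed 200 genes, 500 UMIs and at most 10% mitochondrial UMIs. The barcodes with the highest Scrublet scores were removed as doublets at 0.8% per 1000 barcodes, which marked 678, 601, 415 and 236, against 108, 90, 105 and 41 at its own threshold, and 7638, 7417, 6178 and 4647 cells were kept. Leiden clustering (scanpy 1.11.5, resolution 1, 2000 variable genes, 30 components, 20 neighbours) ran without integration or free-RNA correction. Clusters were named from marker lists, and a cluster with Cd3e in 50% of cells was kept from the NK name. Sums per library and class were fitted with edgeR 4.0.16 (TMM, filterByExpr, robust quasi-likelihood F test), with Benjamini-Hochberg adjustment over all genes at 0.05. DESeq2 1.42.0 (R 4.3.3) was an alternative. The fits were tested on simulated data.

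The members, lists and naming rule were chosen with earlier results of these data known. Members named with values were the 5 of highest level per arm over all cells, the highest and lowest changes per class at 20 CPM or more, those called, those of largest level difference and those not overlapping in 3 or more classes. Fos and Fosb in T-like cells fall outside that rule and were chosen after their values were seen. With 2 libraries against 2 an exact permutation p cannot go below 0.333, and p-values measure the spread between pools of 2 tumours. Replicate numbers come from the sample titles, and whether any control and DKO libraries were handled together is not given there. Deviations of same-numbered libraries correlated at -0.24 to -0.11. With 2 libraries per group this cannot settle whether libraries were paired, by the same number or crosswise.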

Additional observations from a re-analysis of the deposited data

Results flagged for a closer look

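In 9 of the 31 members tested in 2 or more classes, both DKO libraries lay above both controls in at least 1 class and below them in at least 1 other, as they did in 15.2% of 11359 genes. Over the 26 members and 3229 genes tested in every class these were 8 members and 21.2% of genes. The difference between classes was not tested for these pairs, and no cause was tested. Hspa1b had log2 changes of 1.99 in NK-like, 0.873 in dendritic-like and 0.74 in monocyte/macrophage-like cells and of -2.59 in neutrophil-like cells. The last is a fitted value with DKO 2 at 0 UMIs, ran from -9.01 to -1.91 over the settings and is no bound. Hsp90aa1 was at 0.125 in NK-like and -1.19 in neutrophil-like cells, and Dnajb1 at 0.117 in T-like and -0.643 in neutrophil-like cells. Bag3 was at 0.269 in T-like and -0.425 in NK-like cells.

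Among the immediate-early members, Nfkbiz was at 0.408, 0.186 and 0.453 in monocyte/macrophage-like, T-like and dendritic-like cells and at -0.316 in NK-like cells. Klf6 was at 0.264, 0.328, 0.287 and 0.408 in monocyte/macrophage-like, T-like, NK-like and dendritic-like cells and at -0.48 in neutrophil-like cells. Atf3 was at 0.0749 and 0.309 in monocyte/macrophage-like and dendritic-like cells and at -0.445 in NK-like cells, and Ier5 at 0.302 and 0.271 in the former and -0.0433 in the latter. Gadd45b was at 0.183 in T-like and -0.359 in NK-like cells.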

How the results depend on the processing

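Of 202 summary values under alternatives, 167 kept their size or call. Leaving out 1 library gave 0 to 0 members called over all CD45+ cells, 0 to 1 in monocyte/macrophage-like, 0 to 6 in T-like, 2 to 5 in NK-like, 0 to 13 in dendritic-like and 0 to 3 in neutrophil-like cells, with fewer samples fitted. DESeq2 called 1 member over all cells (Nfkbiz, with 431 genes) and 1 in monocyte/macrophage-like cells (Rhob). Without the low-count filter 2, 6, 3 and 2 members were called in T-like, NK-like, dendritic-like and neutrophil-like cells. Over all genes that setting called 373 of 17016, 122 of 14555, 110 of 15343 and 43 of 11663 in the same order. The class-by-group term had 1 with a mitochondrial limit of 5%, when 92 of 12676 genes were called. The replicate block called 2 members in NK-like cells (21 genes) and changed no other count of members. A crossed replicate block, chosen after seeing the data, called 2, 2, 5, 8, 1 and 4 members (all cells, monocyte/macrophage-like, T-like, NK-like, dendritic-like, neutrophil-like). Over all genes, calls were 0 to 431 over all cells (0 as reported, most with DESeq2), 0 to 472 in monocyte/macrophage-like (1, most without control 1), 1 to 649 in T-like (1, most without DKO 1), 4 to 350 in NK-like (6, most without control 1), 0 to 852 in dendritic-like (0, most without DKO 1) and 1 to 76 in neutrophil-like cells (4, most without control 1). The class-by-group term had 1 (without DKO 1) to 296 (no filter), against 51. The replicate block gave 5, 13 and 13 genes in monocyte/macrophage-like, T-like and neutrophil-like cells, and the crossed block gave 515, 180, 939, 486, 35 and 98 in the order above. Immediate-early log2 sums without 1 library ran from 0.042 to 0.338 (all cells), 0.00592 to 0.347 (monocyte/macrophage-like) and 0.158 to 0.487 (dendritic-like), each lowest without DKO 2. Chaperone sums in NK-like cells were at -0.030, at 0.00237 with a 5% mitochondrial limit, 0.00986 at an equal mix of clusters and -0.0141 at resolution 2. In neutrophil-like cells they were at -0.73, at -0.487 with doublets kept and between -0.890 and -0.553 without 1 library.

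Of 1127 values of named members under alternatives, 26 changed sign, 64 came to pass the threshold and 1037 kept sign and call. The Hspb1 level difference was 1 of the 26 and lost the threshold as well. Without 1 library, values of both signs were found over all cells for Fos (-0.270 to 0.046), Dusp1 (-0.346 to 0.176) and Hsp90aa1 (-0.178 to 0.024), in monocyte/macrophage-like cells for Nfkbia (-0.440 to 0.066), and in T-like cells for Hspa1b (-0.215 to 1.73), Hspa1a (-0.190 to 1.30) and Hspa8 (-0.066 to 0.053). The same held in NK-like cells for Junb (-0.181 to 0.263), Btg2 (-0.028 to 0.108) and Ppp1r15a (-0.042 to 0.350), and in neutrophil-like cells for Btg2 (-0.167 to 0.369) and Nfkbiz (-0.031 to 0.411). With the 5% limit Dusp1 was at 0.000697 over all cells, and Junb, Zfp36 and Btg2 at -0.055, -0.00681 and -0.012 in NK-like cells. At resolution 2 Junb and Btg2 were at -0.022 and -0.012 there. With doublets kept Hspa1a in T-like cells was at -0.00429 and the Hspb1 level difference at -1.06, and without the filter Hspa8 in T-like cells at 0.00481. The cause was not tested. The planned B-like, plasmacytoid dendritic-like and mast or basophil-like comparisons were not run, because a library held fewer than 50 cells of each.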
